A study of Rattus norvegicus with 20 samples.

Results

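The synthesis of fatty acids from dietary carbon was followed in preneoplastic rat liver through 10 lipogenesis genes: Scd, Thrsp, Acly, Fasn, Acaca, Me1, Elovl5, Elovl6, Fads1 and Srebf1. The genes were taken by name, from a list chosen with earlier results of these data known. Each was read from its brightest probe over all 20 arrays, and every gene that had a probe had 1. Of the 10 genes, 9 had a probe named in the array's annotation and 7 passed the minimum for testing, a normalized signal over 200 on at least 5 arrays, out of 13337 genes with a named probe and 6102 tested. Fasn, which encodes fatty acid synthase, was not analysed here because no probe carried its name, and the signals of Acaca and Elovl6 were too dim to test.

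The arrays came from the Resistant-Hepatocyte (R-H) protocol: male Fischer rats received a single dose of the carcinogen diethylnitrosamine (DENA), then a diet with 2-acetylaminofluorene (2-AAF), which blocks the division of normal hepatocytes, and a partial hepatectomy (PH). Tissue was laser-microdissected and hybridized on one-colour Illumina RatRef-12 arrays, 5 per group. The chip that held an array was inferred from the number in its sample title. Early preneoplastic foci (EPFs) were dissected 7 days after PH (4 weeks after DENA), with a pool of foci on each array. Nodules were taken 10 weeks after DENA, when the rats had returned to a basal diet, and each nodule array held 1 nodule, assigned to the CK-19-positive or the CK-19-negative group by staining for cytokeratin-19 (CK-19+ and CK-19- nodules in the text). Controls were random areas of liver, which the methods call normal liver in one place and liver of rats on the protocol in another; they were described as age-matched, and the age of each was not given in the sources used here. RNA came from 4 to 5 animals and no label ties an array to a rat, so that the p-values below measure the spread between arrays and may be too small.

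Lipogenesis joins a carbon supply to a chain-building step. ATP citrate lyase (Acly) releases acetyl-CoA from citrate, and acetyl-CoA carboxylase (Acaca) turns it into malonyl-CoA. Fatty acid synthase builds palmitate with NADPH that malic enzyme (Me1) helps to supply. The elongase Elovl6 then lengthens the chain and the desaturase Scd adds a double bond. The elongase Elovl5 and the desaturase Fads1 act mainly on polyunsaturated chains. In liver the genes are switched on together after a carbohydrate meal, in part through the transcription factor SREBP-1c, one of the products of Srebf1. Thrsp (Spot 14) is a small, highly inducible protein that promotes the pathway.

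In EPFs, 5 of the 7 tested genes were lower than in control liver: Scd 6.46-fold, Thrsp 6.14-fold, Acly 4.13-fold, Srebf1 4.00-fold and Fads1 2.69-fold. None was higher, and every EPF array lay below every control array for each of the 5. The share of all tested genes separated in this way was not counted, here or for the separations of single genes described below. In CK-19+ nodules Srebf1 and Elovl5 were lower than control, 2.14-fold and 2.96-fold, but neither was called within chip 1 or with the array chip as a block (log2 fold changes of -0.58 and -0.75 for Srebf1, -0.47 and -0.51 for Elovl5). Scd in the same nodules stood at 26389 ± 2821 against 29803 ± 6665 in control liver (mean normalized signal ± SD, n = 5 arrays each). In CK-19- nodules none of the 7 genes met the criteria in either direction. A gene was called when limma's Benjamini-Hochberg adjusted p over the 6102 genes was under 0.05 and the difference was at least 2-fold. By this rule 12.4% of all tested genes were called in EPFs (6.15% lower and 6.26% higher), 9.85% in CK-19+ nodules (4.9% lower and 4.95% higher) and 1.95% in CK-19- nodules (0.656% lower and 1.29% higher). The median log2 fold change of the 7 genes was -2.00 in EPFs, -0.75 in CK-19+ nodules and 0.04 in CK-19- nodules, beside -0.02, -0.01 and 0.00 over all tested genes. All 3 comparisons share the same 5 control arrays.

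**Figure D1:**
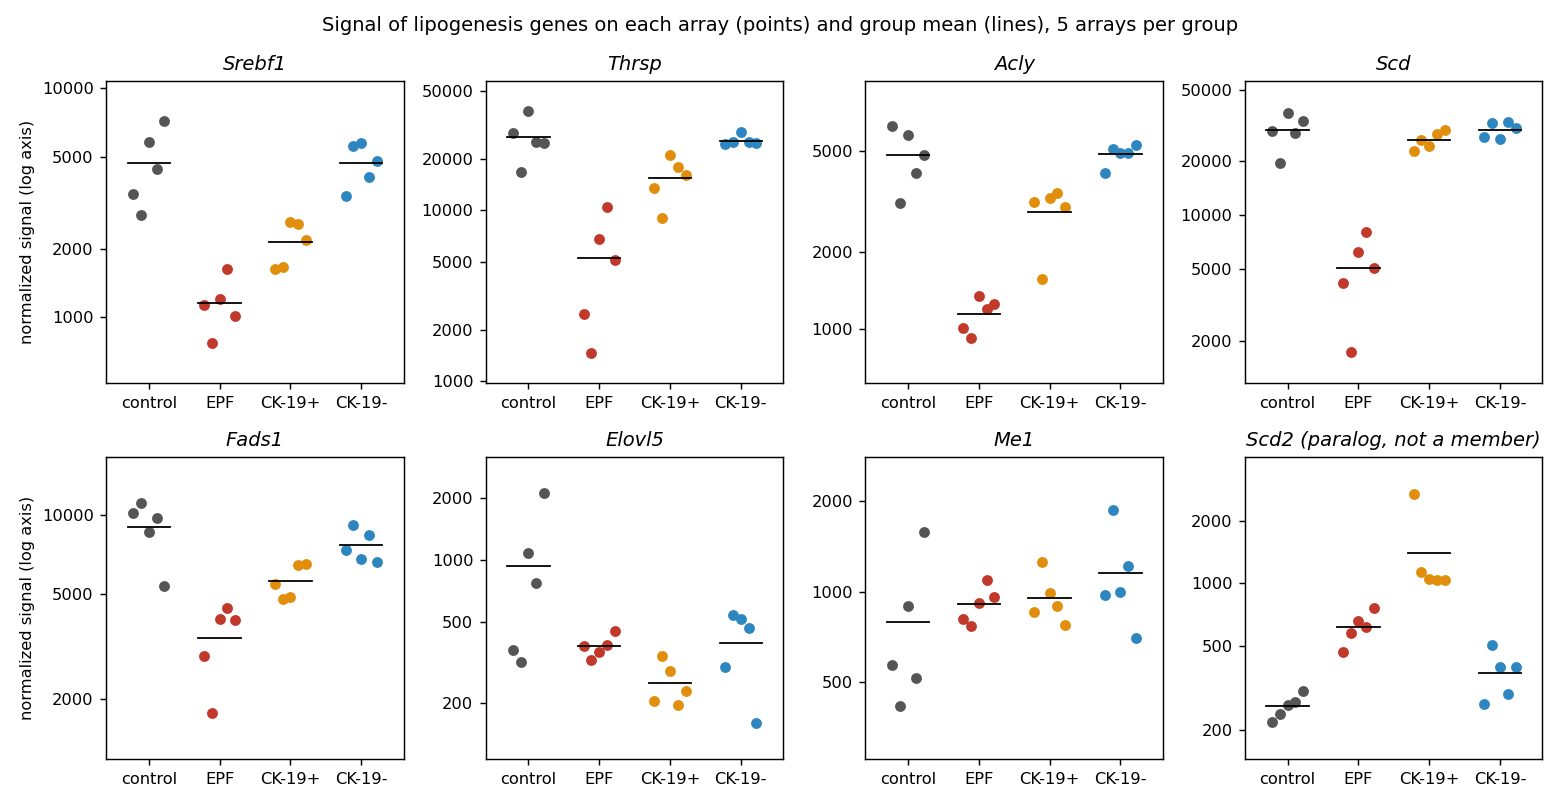
Normalized signal (log axis) of the 7 tested lipogenesis genes and of the paralog Scd2 on each of the 20 arrays (points) with the group means (lines), for control liver, EPFs, CK-19+ and CK-19- nodules. The EPF points of Srebf1, Thrsp, Acly, Scd and Fads1 lie below all control points, whereas those of Scd2, with a mean of 618 against 259, lie above them.

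The groups differ in more than the lesion. By the numbers in the titles, all 5 EPF arrays lay on a BeadChip of their own, so that chip and EPF group cannot be told apart. The same holds for the recent exposure to 2-AAF and PH. In RNA of whole dissected areas, fewer cells of a type and less RNA per cell cannot be told apart either. Of 7 hepatocyte markers 6 had a probe and none was called in any lesion against control. Their summed signal, carried mostly by the brightest markers, was 101280 to 174820 in control liver and 128150 to 148780 in EPFs. Ttr was 26057 to 40572 in control liver and 16482 to 25361 in EPFs, and Hnf4a was 219 to 277 and 176 to 217. Alb, Tf, Serpina1 and Cps1 overlapped between these groups, with Cps1 at a mean of 11305 in control liver and 18274 in EPFs. Biliary and oval cell markers (5 of 6 with a probe) summed to 1085 to 1329 in control liver, 2353 to 5023 in EPFs, 8081 to 14576 in CK-19+ nodules and 1210 to 3709 in CK-19- nodules, where Krt19, Epcam and Cd24 rose in EPFs and CK-19+ nodules and Epcam and Cd24 in CK-19- nodules. Adipocytes also use the lipogenesis genes; their markers Adipoq, Lep and Retn were under 200 on every array, Cfd fell from 2630.3 to 836 in EPFs and Fabp4 rose in all lesions. Of 5 macrophage markers 3 had a probe. Marco was lower in every lesion group, and Cd163 and Ptprc were not called in any. The red blood cell gene Hbb (2 of 3 markers with a probe) was also lower in every lesion group. None of 3 stellate cell markers with a probe was called, and no endothelial marker had a probe. The part of these shifts in the lipogenesis values was not tested. Gstp1, the marker of the lesions, was between 261 and 449 in control liver and at least 19371 on every lesion array.

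The 250 bases before a RefSeq start site of 7 of the 10 genes were read (rat build GRCr8), and those of the 5 genes that were lower in EPFs are shown because these genes moved together, with the window of Scd2, a neighbouring paralog that moved the other way. Capitals mark matches, on either strand, to CCAAT (the NF-Y box), GGGCGG (a GC box), CACGTG (an E-box) or TCACNCCAC (a sterol regulatory element), and no 2 matches overlapped. The window of Scd is chr1:253231732-253231981 on the minus strand; Thrsp is chr1:161138965-161139214 on the minus strand; Acly is chr10:85963632-85963881 on the minus strand; Fads1 is chr1:216252442-216252691 on the plus strand; the 2 start sites of Srebf1 are chr10:45529165-45529414 and chr10:45519011-45519260, both on the minus strand; and Scd2 is chr1:253118127-253118376 on the plus strand. The windows of Scd and Acly and the second window of Srebf1 lie inside the annotated bounds of their genes, which reach to 253232101, 85964605 and 45529164, and that of Fads1 overlaps its gene, which begins at 216252605, so that start sites further upstream were not read for Scd, Acly and Fads1.
Scd: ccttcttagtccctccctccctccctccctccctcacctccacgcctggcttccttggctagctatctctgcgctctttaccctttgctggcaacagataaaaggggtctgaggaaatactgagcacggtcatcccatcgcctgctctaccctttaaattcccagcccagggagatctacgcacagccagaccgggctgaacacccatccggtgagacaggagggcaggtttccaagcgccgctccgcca
Thrsp: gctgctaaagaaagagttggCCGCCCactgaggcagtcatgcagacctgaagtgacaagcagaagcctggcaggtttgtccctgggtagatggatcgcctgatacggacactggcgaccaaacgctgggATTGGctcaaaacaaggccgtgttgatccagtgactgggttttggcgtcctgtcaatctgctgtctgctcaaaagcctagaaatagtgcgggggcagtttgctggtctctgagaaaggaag
Acly: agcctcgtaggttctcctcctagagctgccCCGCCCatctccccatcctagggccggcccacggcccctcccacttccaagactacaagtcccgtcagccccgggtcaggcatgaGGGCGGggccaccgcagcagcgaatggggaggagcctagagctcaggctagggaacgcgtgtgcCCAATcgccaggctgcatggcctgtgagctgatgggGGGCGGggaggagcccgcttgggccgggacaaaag
Fads1: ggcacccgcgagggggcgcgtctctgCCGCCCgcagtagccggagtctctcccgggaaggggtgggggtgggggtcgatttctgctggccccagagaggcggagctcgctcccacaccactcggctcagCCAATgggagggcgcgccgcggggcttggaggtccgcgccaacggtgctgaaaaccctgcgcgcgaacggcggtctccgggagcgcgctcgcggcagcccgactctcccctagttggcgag
Srebf1 start site 1: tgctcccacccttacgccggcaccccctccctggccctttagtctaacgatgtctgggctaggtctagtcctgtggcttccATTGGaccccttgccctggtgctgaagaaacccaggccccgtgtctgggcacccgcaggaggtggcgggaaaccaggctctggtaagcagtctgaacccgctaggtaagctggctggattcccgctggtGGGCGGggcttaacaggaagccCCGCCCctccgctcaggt
Srebf1 start site 2: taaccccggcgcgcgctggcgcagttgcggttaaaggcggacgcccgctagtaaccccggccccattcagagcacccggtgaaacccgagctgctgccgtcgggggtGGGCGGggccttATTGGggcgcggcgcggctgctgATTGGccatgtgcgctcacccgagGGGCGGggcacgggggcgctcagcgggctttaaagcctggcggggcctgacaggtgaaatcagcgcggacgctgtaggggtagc
Scd2: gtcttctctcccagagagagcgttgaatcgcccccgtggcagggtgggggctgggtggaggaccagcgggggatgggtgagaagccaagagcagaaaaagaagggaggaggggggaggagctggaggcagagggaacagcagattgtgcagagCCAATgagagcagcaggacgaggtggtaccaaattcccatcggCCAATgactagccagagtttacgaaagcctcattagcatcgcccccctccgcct
These windows share no single layout. CCAAT or its complement stood in the windows of Thrsp (121 bases before the start site), Acly (71 bases), Fads1 (121 bases) and both Srebf1 sites, and in 34% of 33469 RefSeq rat windows of the same length. It also stood in the window of Elovl5 and, at 97 and 54 bases, in that of Scd2, but not in those of Scd and Me1. GGGCGG matched in Thrsp, Acly, Fads1, Srebf1 and, 5 times, in Me1, against 30.5% of all windows. CACGTG (5.59% of windows) matched only in Elovl5, and TCACNCCAC (0.974% of windows) matched in none of the 9 windows read. The Scd window, at its internal start site, held none of the 4 motifs. A match is a run of letters and not a bound site, and no match says only that the letters are not in these 250 bases.

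Srebf1, the gene of a transcription factor of the pathway, was read by 1 probe. The annotation does not say whether this probe takes in the SREBP-1a or the SREBP-1c transcript. In control liver its signal was 3471, 2796, 5827, 4442 and 7182 on arrays 1 to 5. In EPFs it was 1132, 774, 1207, 1636 and 1019. No EPF array came near the lowest control array, control 2. In CK-19+ nodules Srebf1 was 1630.3, 1664, 2624, 2569 and 2177, all of them below that same control array. In CK-19- nodules it was 3383, 5625, 5762, 4084 and 4815, inside the range of the controls. Srebf1 was thus the only one of the 7 genes for which all 5 CK-19+ nodules lay below all controls. How many of all tested genes were separated like this was not counted, so it is a description only. Against control the log2 fold change of Srebf1 was -2.00 in EPFs (SE 0.23, adjusted p = 1.522e-07 by limma) and -1.10 in CK-19+ nodules (SE 0.23, adjusted p = 0.0004091), and the exact two-sided permutation test gave p = 0.007937 for both, the smallest p that 5 against 5 arrays allow. For CK-19- nodules the log2 difference was 0.05, with a 95% interval of -0.42 to 0.53. The nodule groups also differed from each other in Srebf1, by -1.15 for CK-19+ against CK-19- nodules (adjusted p = 0.0005388).

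The Srebf1 controls were split by chip. Controls 1 and 2, on chip 1 with all CK-19+ nodules and CK-19- nodule 5, averaged 3134, and the controls on chips 2 and 3 averaged 5827 and 5812. Within chip 1 the log2 fold change of Srebf1 in CK-19+ nodules was -0.58 (adjusted p = 0.05353), and with chip as a block over chips 1 and 2 it was -0.75 (adjusted p = 0.02442), so that the 2-fold call was lost in both. It was also lost without control 5, at -0.93. Between the nodule groups the Srebf1 difference was -0.85 with chip as a block (adjusted p = 0.0634) and -1.20 within chip 1 (adjusted p = 0.03087), where the CK-19- group was 1 nodule assumed to vary like the other groups.

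Thrsp encodes a protein of liver and fat whose level follows the rate of lipogenesis. Its signal in control liver was 28495, 16806, 38024, 25191 and 24825. In the EPF pools it was 2464, 1462, 6836, 10391 and 5104. The ratio of the highest to the lowest array was wider in EPFs than in the other groups, and still no EPF reached control 2. In CK-19+ nodules Thrsp was 13471, 8995, 21031, 17878 and 16122, of which 3 lay below the lowest control. In CK-19- nodules it was 24330.2, 24959.7, 28715, 25191 and 24624, the tightest of the 4 groups. The log2 fold change of Thrsp against control was -2.62 in EPFs (SE 0.36, adjusted p = 1.942e-06 by limma). In CK-19+ nodules it was -0.79 with a 95% interval of -1.53 to -0.05 (adjusted p = 0.07492), which did not pass, and in CK-19- nodules -0.01 (interval -0.76 to 0.73). EPFs were also lower in Thrsp than CK-19+ nodules, by -1.83 (adjusted p = 0.000232), although EPF 4, at 10391, exceeded CK-19+ nodule 2.

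Acly supplies the acetyl-CoA from which the chain is built. In control liver its signal was 6258, 3134, 5792, 4097 and 4833. In EPFs it was 1010.3, 920.3, 1346, 1195 and 1251, the narrowest group of the 4 in signal. In CK-19+ nodules Acly was 3147, 1572, 3269, 3412 and 3020.1, with nodule 2 apart from the other 4. In CK-19- nodules it was 4104, 5068, 4905, 4889 and 5267. The EPF arrays lay below all other 15 arrays, and the CK-19+ nodules below all CK-19- nodules. The log2 fold change of Acly in EPFs was -2.05 (SE 0.19, adjusted p = 7.098e-09 by limma). In CK-19+ nodules it was -0.75 (adjusted p = 0.00259), past the p threshold at 1.68-fold and so not called, and in CK-19- nodules it was 0.04 (95% interval -0.35 to 0.44). CK-19+ nodules were 1.74-fold below CK-19- nodules in Acly (adjusted p = 0.002873), also short of 2-fold.

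The next enzymes of the route could be followed only in part. Acaca, the carboxylase that commits acetyl-CoA to fatty acids, had a signal of 157 to 389 in control liver, with 3 of 5 arrays over 200. It was 146 to 168 in EPFs and 139 to 160 in CK-19+ nodules, with no array over 200, and 152 to 220.4 in CK-19- nodules, with 1 over 200. These signals lie near the median of all probes, 157.3, and no fold is given for Acaca. Elovl6, which elongates palmitate, stayed between 114 and 150.4 on all 20 arrays.

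Me1, the cytosolic malic enzyme that makes NADPH, was the only tested gene with a positive log2 difference from control in all 3 lesion groups, none of which passed. Its signal in control liver was 573, 418, 897, 516 and 1576. In EPFs Me1 was 809.7, 768, 915, 1090.1 and 961. The groups overlapped, and control 5 lay above every EPF. In CK-19+ nodules it was between 778 and 1259, and in CK-19- nodules between 701 and 1867. The log2 difference of Me1 from control was 0.35 in EPFs (95% interval -0.21 to 0.92, adjusted p = 0.28 by limma), 0.42 in CK-19+ nodules (interval -0.15 to 0.98, adjusted p = 0.2189) and 0.63 in CK-19- nodules (interval 0.06 to 1.19, adjusted p = 0.1238). With chip as a block the difference in CK-19+ nodules was 0.93 (adjusted p = 0.003685), and it stayed under 2-fold.

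Scd encodes the stearoyl-CoA desaturase that puts the first double bond into stearate and palmitate. In control liver its signal was 29473, 19594, 37379.8, 28879.8 and 33686. The EPF arrays gave 4181, 1742, 6236, 8134 and 5068. Even the highest EPF pool, EPF 4, stood far under the lowest control. In CK-19+ nodules Scd was 22996, 26428, 24330.2, 28251 and 29939.8, and in CK-19- nodules 27334, 32537, 26573, 33080.1 and 30673. Both nodule groups overlapped the controls, and no nodule lay outside the control range. The log2 fold change of Scd was -2.69 in EPFs against control (SE 0.26, adjusted p = 1.298e-08 by limma), -2.54 against CK-19+ nodules (adjusted p = 8.782e-08) and -2.73 against CK-19- nodules (adjusted p = 1.957e-08), with an exact permutation p of 0.007937 in each. Against control the Scd difference was -0.15 in CK-19+ nodules (95% interval -0.69 to 0.39) and 0.04 in CK-19- nodules (interval -0.50 to 0.58), and within chip 1 it was 0.13 for CK-19+ nodules. Among all genes Scd ranked 29 of 6102 by the size of its fall in EPFs, followed by Thrsp at 33, Acly at 69, Srebf1 at 75, Fads1 at 188, Elovl5 at 402 and Me1 at 4594.

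Fads1, the delta-5 desaturase of polyunsaturated fatty acid synthesis, moved in the same direction over a smaller range. Its signal in control liver was 10163, 11129, 8608, 9765 and 5390.0. The EPF values were 2903, 1774, 4028, 4419 and 3999, all below control 5, the lowest control. In CK-19+ nodules Fads1 was 5492, 4797, 4870.3, 6443 and 6501, and in CK-19- nodules 7354, 9187, 6795, 8414 and 6662. The EPF, CK-19+ and CK-19- arrays formed consecutive ranges that did not overlap. The log2 fold change of Fads1 against control was -1.43 in EPFs (SE 0.21, adjusted p = 4.914e-06 by limma), -0.65 in CK-19+ nodules (adjusted p = 0.0137, 1.57-fold) and -0.20 in CK-19- nodules (adjusted p = 0.5759). Within chip 1 the difference in CK-19+ nodules was -0.93 (adjusted p = 0.001088), still under 2-fold. Between the nodule groups it was -0.45 (95% interval -0.88 to -0.02, adjusted p = 0.1101), which did not pass.

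Elovl5, the elongase that acts mainly on polyunsaturated chains, had another pattern. In control liver its signal was 365, 317, 1084, 772 and 2119. In EPFs it was 379.7, 324, 357, 385 and 451, and all 5 values lay inside the wide control range. In CK-19+ nodules Elovl5 was 205, 340.5, 289, 196 and 229, of which 4 lay below the lowest control. In CK-19- nodules it was 299, 537, 512, 464 and 161. The controls separated by chip, with a mean of 341 for controls 1 and 2 on chip 1, 1084 for control 3 on chip 2 and 1446 for controls 4 and 5 on chip 3. Against all controls the log2 fold change of Elovl5 was -1.57 in CK-19+ nodules (SE 0.38, adjusted p = 0.001901 by limma), -0.95 in EPFs (adjusted p = 0.03891, under 2-fold) and -1.01 in CK-19- nodules (adjusted p = 0.07576). With chip as a block the values were -0.51 (adjusted p = 0.07849) in CK-19+ and -1.20 (adjusted p = 0.005152) in CK-19- nodules, so that the former call was lost and the latter gained; within chip 1 CK-19+ nodules differed by -0.47 (adjusted p = 0.1037). The Elovl5 values depended on single arrays. In EPFs Elovl5 was called without control 1 (-1.20), control 2 (-1.25) or EPF 5 (-1.02), whereas without control 5 it was -0.57 (adjusted p = 0.1507) and without control 3 or control 4 its adjusted p was 0.09951 or 0.06505, and without any one of EPFs 1 to 4 it was 0.05725 to 0.07519. In CK-19- nodules, already past 2-fold with all arrays, the adjusted p passed without control 1 (0.03228) or control 2 (0.01953), and without control 5 the difference was -0.63 (adjusted p = 0.2161).

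**Figure D2:**
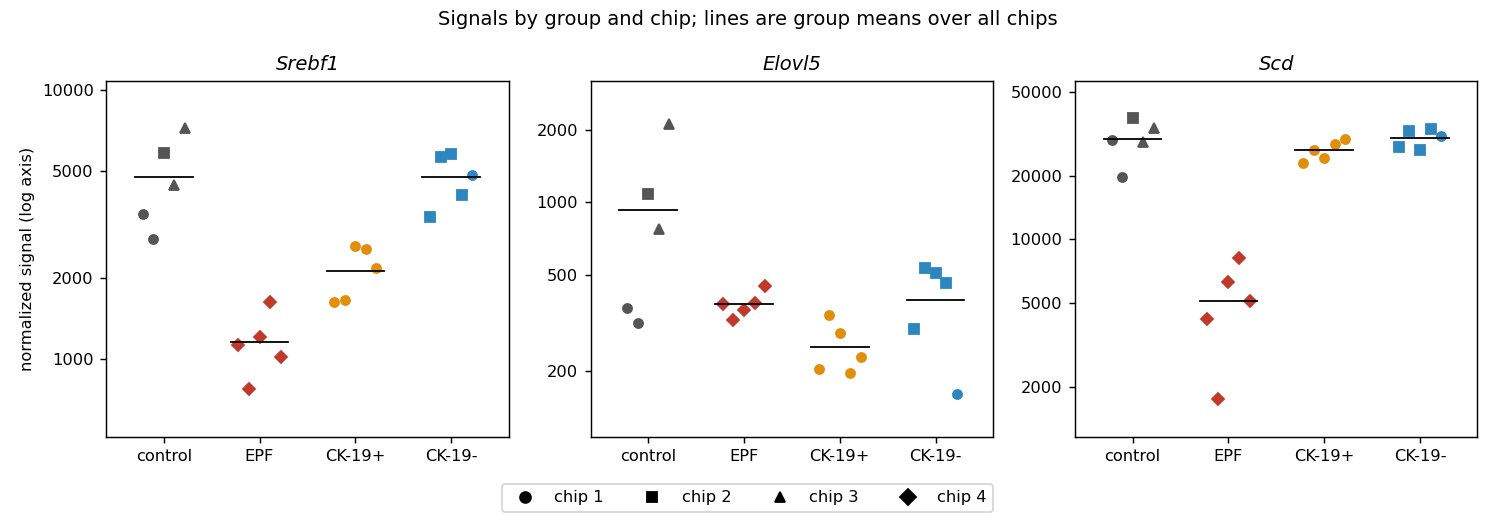
Normalized signal (log axis) of Srebf1, Elovl5 and Scd by group, with marker shape for the BeadChip and lines for the group means over all chips, 5 arrays per group. For Srebf1 and Elovl5 the controls on chip 1 (means 3134 and 341) lie below those on chips 2 and 3, and all EPFs lie on chip 4.

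Between the lesions, EPFs were lower than CK-19+ nodules in Scd (5.82-fold), Thrsp (3.55-fold) and Acly (2.45-fold), 3 of the 7 tested genes where 6.16% of all genes were called (3.43% lower and 2.74% higher). Fads1 (1.71-fold) and Srebf1 (1.87-fold) passed the p threshold of limma there (adjusted p = 0.004154 and 0.002677) without reaching 2-fold, and Srebf1 reached it, at -1.04 on the log2 scale, when EPF 4 was left out. Against CK-19- nodules EPFs were lower in the same 5 genes as against control, with folds of 6.63 for Scd, 6.08 for Thrsp, 4.26 for Acly, 4.15 for Srebf1 and 2.34 for Fads1, where 8.92% of all genes were called (4.79% lower and 4.13% higher). CK-19+ nodules were lower than CK-19- nodules in 1 gene, Srebf1 (2.22-fold), where 4.79% of all genes were called (2.39% in each direction). All CK-19+ nodules lay on chip 1 and 4 of the 5 CK-19- nodules on chip 2, and with chip as a fixed block this call was lost (-0.85, adjusted p = 0.0634). Thrsp (1.71-fold, adjusted p = 0.1089) and Fads1 did not pass in that comparison. No CK-19+ nodule overlapped a CK-19- nodule in Thrsp, Acly, Fads1 or Srebf1. How many of all tested genes were separated in this way was not counted, so the separation is a description only. Scd differed by 1.14-fold between the nodule groups (95% interval -0.73 to 0.35 on the log2 scale).

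**Figure D3:**
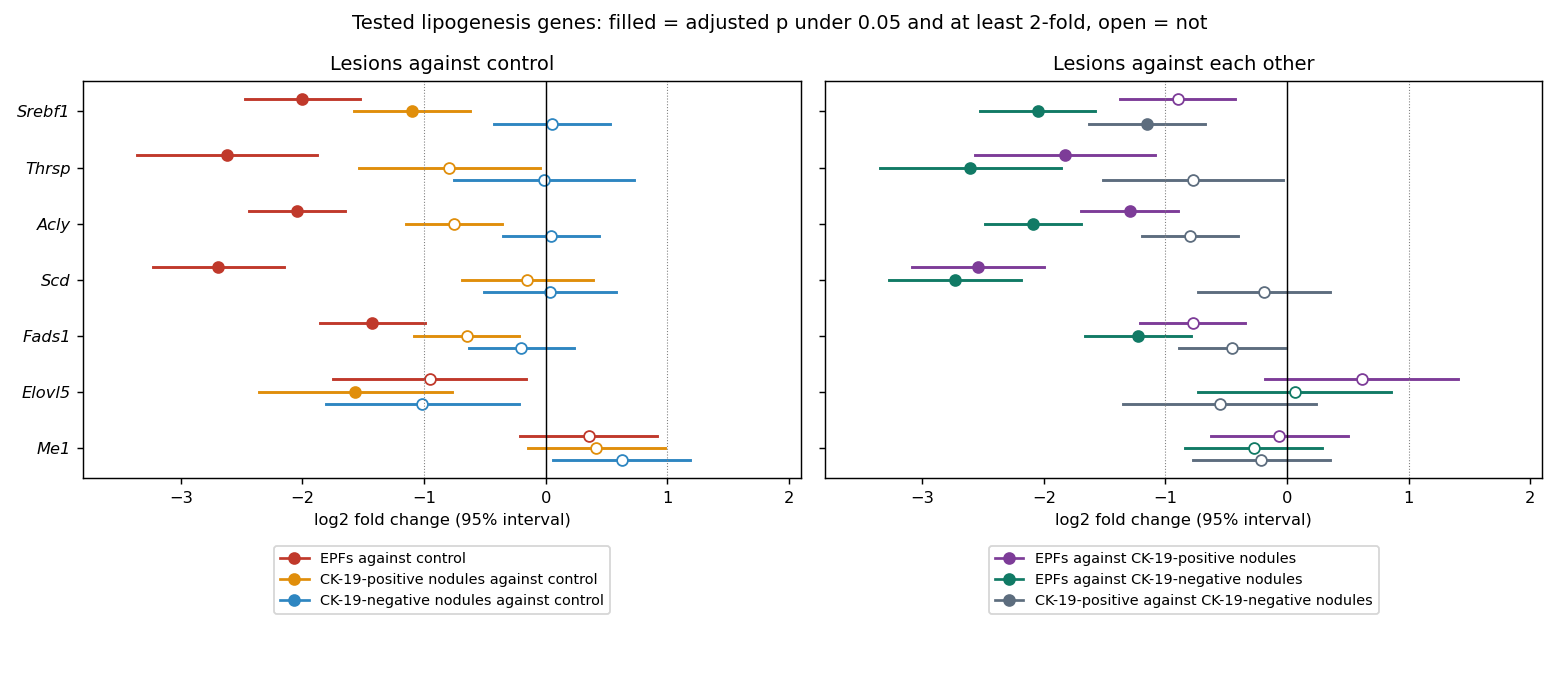
Log2 fold changes (points) with 95% intervals (bars) of the 7 tested genes, for each lesion against control (left) and for the lesions against each other (right), from 5 arrays per group; filled points were called, open points were not, and dotted lines mark 2-fold. Scd is at -2.69 in EPFs and at -0.15 and 0.04 in the nodule groups, whereas Me1 lies to the right of 0 in all 3 comparisons with control.

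Some arrays were low or high for several of the genes. EPF 2 was the lowest EPF array for all 7 tested genes and EPF 4 the highest for 5 of them, and control 2 was the lowest control for 6. Averaged over the 5 genes called in EPFs, the log2 difference from the control mean was -2.40, -3.08, -1.79, -1.51 and -2.01 in EPFs 1 to 5. It was -0.80, -1.11, -0.54, -0.45 and -0.55 in the CK-19+ nodules and between -0.20 and 0.13 in the CK-19- nodules. The controls themselves ran from -0.42 (control 2) to 0.32 (control 3). The genes were chosen by their EPF values for this average, which is a description of the arrays and carries no test.

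By likeness, the gene closest to Scd over the 20 arrays among all tested genes was another member, Thrsp. Likeness was the root mean square difference between log2 signals, each gene centred on its own mean, and it was 0.42 for Thrsp against a median of 1.25 over all genes. Mup5 (0.46), Serpina3c (0.47), Ndrg2 (0.49), Rnase4 (0.49) and Ethe1 (0.51) were the closest genes outside the list. Of the other members Acly ranked 13, Srebf1 33 and Fads1 74, while Me1 and Elovl5 ranked 3301 and 4623.

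A wider list held 65 other genes, of which 52 had a probe and 44 were tested. This list was also chosen with earlier results of these data known, so its counts are a description and carry no test. It took in regulators, carbon and NADPH supply, elongation and desaturation, fatty acid activation and glyceride synthesis, and lipid droplet and lipolysis. Some of its genes restrain synthesis or break lipid down, so a lower gene is not always a gene of synthesis. In EPFs 3 were higher and 8 lower than control, in CK-19+ nodules 1 was higher and 12 lower, and in CK-19- nodules 1 was lower. Of all tested genes 6.26% were higher and 6.15% lower in EPFs, 4.95% and 4.9% in CK-19+ nodules, and 1.29% and 0.656% in CK-19- nodules. The 44 genes had median log2 fold changes of -0.27, -0.40 and -0.16 in these groups, beside -0.02, -0.01 and 0.00 over all tested genes. Of 12 tested regulators, Insig2, which retains SREBP precursors in the endoplasmic reticulum, fell from a mean signal of 9822 to 2567 in EPFs and 2463 in CK-19+ nodules (log2 fold changes -1.92 and -2.00). Mid1ip1, a paralog of Thrsp that helps acetyl-CoA carboxylase to polymerize, fell by 1.84 and 1.20 on the log2 scale. Thrb, a thyroid hormone receptor, fell by 1.28 in EPFs and, short of 2-fold, was lower in CK-19+ nodules (-0.90). Of 6 tested genes of carbon and NADPH supply, Pklr, the liver pyruvate kinase, and Acss2, an acetyl-CoA synthetase (-1.16), were lower in EPFs. Pklr was the gene of the wider list with the largest fold in EPFs, at 9.97-fold lower: its signal was 1988 to 3528 in control liver, 226 to 365 in EPFs, 658 to 1464 in CK-19+ and 2259 to 2839 in CK-19- nodules (log2 fold changes -3.32, -1.44 and -0.16, adjusted p = 5.495e-12, 2.138e-06 and 0.6384 by limma).

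Scd2 is a second stearoyl-CoA desaturase gene, 87.5 kb from Scd on chromosome 1, and was the single gene of the 6 tested for elongation and desaturation to be called higher, at the 2-fold threshold, against control. Its signal was 217, 237, 263, 272 and 306 in control liver. In EPFs it was 471, 579, 658, 618 and 765, and in CK-19+ nodules 2692, 1141, 1045, 1038 and 1039.9. The 3 groups did not overlap. In CK-19- nodules Scd2 was 264, 507, 396, 295 and 398, with 3 of 5 above the highest control. The log2 fold change of Scd2 was 1.25 in EPFs (SE 0.22, adjusted p = 4.683e-05 by limma), 2.32 in CK-19+ nodules (adjusted p = 1.276e-08) and 0.49 in CK-19- nodules (adjusted p = 0.1323). Scd and Scd2 are similar in sequence, and how far each probe reads the other transcript was not tested. Elovl2 (-1.05) and Fads2 (-1.17), an elongase and the delta-6 desaturase, were lower in CK-19+ nodules.

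Downstream of synthesis, where fatty acids are activated and built into glycerides (11 genes tested), Acsl1, the main hepatic acyl-CoA synthetase, fell from 22012 in control liver to 6529 in EPFs and 7368 in CK-19+ nodules (mean signals, log2 fold changes -1.77 and -1.59). Dgat2 fell by 1.28 and 1.35 on the log2 scale in the same groups. Dgat1, the other enzyme of the last step of triglyceride synthesis, rose by 1.14 in EPFs, from 1151 to 2536, and stood at 0.17 and 0.04 in CK-19+ and CK-19- nodules. Acsl5 (-1.58) and Agpat2 (-1.09) were lower in CK-19+ nodules, and EPFs lay above these nodules by 1.14 and 1.07 on the log2 scale. In CK-19- nodules Acsl5 and Agpat2 were at -0.84 and -0.44 against control, short of 2-fold. Of 9 tested genes of the lipid droplet, G0s2, an inhibitor of the lipase that opens the store, was lower in every lesion group, by -1.56, -2.54 and -1.41 in EPFs, CK-19+ and CK-19- nodules. Plin3, a droplet coat protein, rose by 1.36 in EPFs, while Plin2, another coat protein, and Fitm2 were lower in CK-19+ nodules (-1.63 and -1.40). These genes moved the same way in the other lesion groups, short of 2-fold. Plin3 was at 0.88 in CK-19+ and 0.79 in CK-19- nodules. In EPFs and CK-19- nodules Plin2 was at -0.71 and -0.96 and Fitm2 at -0.81 and -0.60. Some of these calls fell short of 2-fold under another setting: Elovl2, Agpat2 and Mid1ip1 in CK-19+ nodules by chip (-0.98, -0.99 and -0.90), Fads2 without CK-19+ nodule 2 (-0.92), and Acss2 in EPFs without control 5 (-0.98). G0s2 in CK-19- nodules stayed past 2-fold within chip 1 (-1.15, adjusted p = 0.1608) and within chip 2 (-1.66, adjusted p = 0.3366), where 1 CK-19- nodule and 1 control, in turn, stood alone in their arm and were assumed to vary like the other arrays, so that these p-values say little; with chip as a block it was -1.43.

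**Figure D4:**
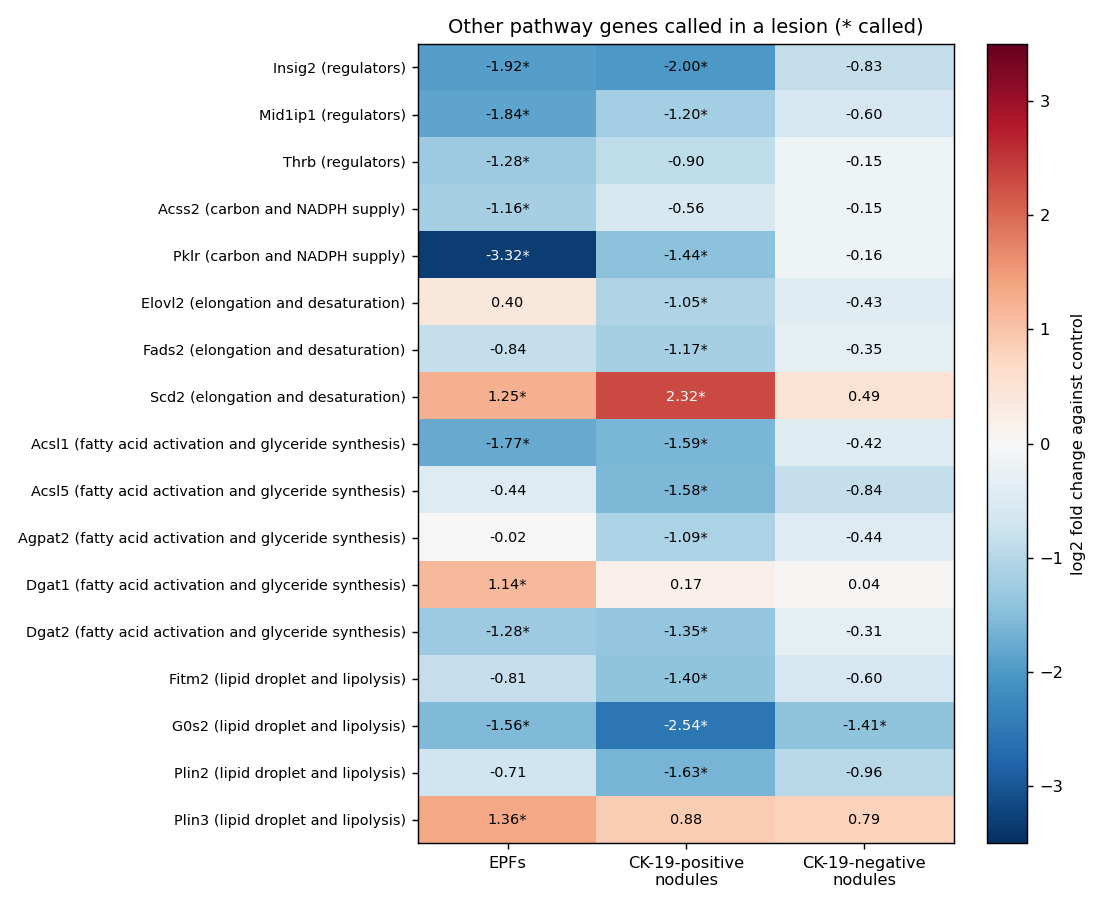
Log2 fold changes against control (colour and printed value) of the 17 other pathway genes called in at least 1 lesion group, with an asterisk where the gene was called, 5 arrays per group. Pklr has the lowest value (-3.32 in EPFs), and Scd2, Dgat1 and Plin3 are the genes called higher.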

How the data were processed

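The authors loaded the array intensities into BeadStudio 3.0.19.0 and BRB Array Tools and applied quantile normalization; the deposited intensities are linear, with no background step stated, a median of 157.3 and a range of 95.5 to 44883. The table before normalization, with 40 value columns whose names match no sample, was not used. Of 22523 probes, 13793 were named through the platform annotation (99.7% matched the RefSeq gene table by Entrez ID) and 8730 were not named here. Dim signals compress fold changes.

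A gene was represented by its brightest probe and tested if its signal passed 200 on at least 5 arrays. Log2 signals of all 20 arrays were fitted with limma 3.58.1 in R 4.3.3 (4 group means, Benjamini-Hochberg over 6102 genes), and single members were also compared by exact two-sided permutation tests of 5 against 5 arrays. The script was tested on simulated data. Promoters came from a RefSeq table and were read in Python 3.11.15; figures were drawn with matplotlib 3.10.9. The members, the other pathway genes, the markers and the tests were chosen with earlier results of these data known. The text names all members, every other pathway gene called against control, and the 5 other genes closest to Scd; Hacd3, called only between lesions, is left out by this rule. Array numbers are names in accession order and pair nothing. The highest correlation of an array with another was 0.9814 to 0.9937 and no pair shared over 0.133% of its values. No array was thus a copy of another, which does not show that the arrays came from different rats. Each array was counted as a replicate. Precision is limited by the number of arrays. Alternatives were other filters, background subtraction, a floor of 300, 50 added before log2, cyclic loess, every probe by itself, chip as a block or within chips, the methods' t-test, a fit of only the groups compared, no fold threshold and each array left out. Oval cells, HCC, staining and RT-PCR were not analysed here.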

Additional observations from a re-analysis of the deposited data

Results flagged for a closer look

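Within the 28 groups of 5 arrays of the 7 tested genes, 2 held an array far from the others on the log2 scale by Dixon's criterion, which chance meets in about 1 in 20 groups. The signal of Thrsp in CK-19-negative nodule 3 was 28715, the highest of its group, with the nearest array at 25191, and the gap was 0.79 of the group's range. The signal of Acly in CK-19-positive nodule 2 was 1572, the lowest of its group, with the nearest array at 3020.1, and the gap was 0.843 of the range. No call of Thrsp or Acly changed when either array was left out.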

How the results depend on the processing

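Members called in EPFs numbered 5 against CK-19-negative nodules under every alternative run, and 5 against control except that Elovl5 made 6 with no fold threshold and with control 1, control 2 or EPF 5 left out. Members called in CK-19-positive nodules against control numbered 0 with chip as a fixed block and 0 within chip 1 (Srebf1 and Elovl5 were lost), 4 with no fold threshold, and 1 to 2 with single arrays left out (1 without control 5). In CK-19-negative nodules Elovl5 alone gave 1 member called with the study's filter, 1 with chip as a fixed block and 0 to 1 with single arrays left out (1 without control 1 or control 2). With no fold threshold 5 members were called for EPFs against CK-19-positive nodules, where single arrays left out gave 3 to 4 (4, with Srebf1, without EPF 4), and 2 were called between the nodule groups, where the chip block gave 0. The fits within chips and with chip as a fixed block leave out the EPFs and chip 3, so fewer arrays enter them. Other causes were not tested. The shares of all tested genes given above belong to the main rule, and those under the alternatives are not given here. These counts therefore show how the calls depend on the setting, and not how unusual they are.

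Some differences of members changed sign, none of them called. Scd in CK-19-negative nodules was -0.045 after cyclic loess, -0.020 with the chip block, -0.33 within chip 2, and -0.10 to 0.13 with arrays left out. Scd in CK-19-positive nodules was 0.0044 with the block and 0.13 within chip 1. Acly in CK-19-negative nodules was -0.046 with the block, -0.29 within chip 2 and -0.10 to 0.15 with arrays left out. Thrsp there was 0.17 within chip 1 and -0.17 to 0.13 with arrays left out, and Srebf1 -0.34 within chip 2 and -0.12 to 0.22. Between nodule groups Elovl5 turned from -0.55 to 0.69 with the block and 0.61 within chip 1, Me1 from -0.21 to 0.45 and 0.43, and Scd from -0.19 to 0.024 with the block. For EPFs against CK-19-negative nodules Elovl5 was -0.12 with the floor of 300 and -0.23 to 0.21 with arrays left out, and Me1 against CK-19-positive nodules was -0.13 to 0.042. No paired analysis was possible because each group carries 1 replicate number for all its arrays in the labels, and the array numbers used here pair nothing.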
